A study of Homo sapiens with 12 samples.

Results

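MCL1, BCL2L1 and BCL2L2 are anti-apoptotic members of the BCL2 family, encoding MCL-1, BCL-xL and BCL-w. They were followed here through the deposited m7G peaks that overlap their RefSeq gene bodies by at least 1 base, which gave 11 of the 9958 peaks in the table, 6 in BCL2L2, 3 in MCL1 and 2 in BCL2L1. Each peak was read in all 12 libraries of THP-1, a human monocytic leukemia line made adherent with the phorbol ester PMA (100 ng/ml, 48 h). The conditions were METTL1 knockdown by short hairpin (KD) and control (NC), each with 3 m7G immunoprecipitates (IP) and 3 libraries marked IN, taken as input. By their labels, the groups KD IP, KD IN, NC IP and NC IN share the cell line, the PMA treatment and the polyadenylated RNA. The labels do not say whether the knockdown derivative is 1 clone, and no peak overlapped METTL1, so these data hold no measure of the knockdown itself.

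BCL2 family proteins decide whether the outer mitochondrial membrane is opened during apoptosis. MCL-1, BCL-xL and BCL-w hold the pore-forming proteins BAX and BAK in check, and BH3-only proteins such as BIM, PUMA and NOXA oppose them by binding in their groove. MCL-1 is a short-lived protein on which many myeloid cells depend, BCL-xL is raised by cytokine signalling through STAT and NF-kB factors, and BCL-w is best known for its role in spermatogenesis. METTL1, with its partner WDR4, places 7-methylguanosine (m7G) in tRNA and has been described to do so inside mRNA. The same modified base forms the mRNA cap, so an antibody to m7G can also retain cap-proximal fragments.

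Reads in peak regions came to 1513492 to 1888972 in KD IP, 953727 to 1105477 in KD IN, 1476384 to 1676625 in NC IP and 907024 to 1052685 in NC IN. Levels are given as CPM, the reads of a region relative to the scaled total of the 5113 regions that passed the count filter. An IP over input ratio therefore sets a region against the average peak region. Although all libraries are labelled THP-1, knockdown and control stood far apart in cell line markers. Several of these markers were known from earlier results of these data, so their values describe the difference and do not test it. The 15 tested regions of a list of genes of HEK293, a kidney-derived line, summed to 1240 to 1420 CPM in KD IN and 9260 to 9990 CPM in NC IN, and in IP to 886 to 968 CPM in KD and 7460 to 8480 CPM in NC. The list held 22 genes, of which 15 had a peak. Of the 15 regions, 14 were called lower and 1 higher in KD input. Over all tested regions 21.9% were lower and 17.9% higher. No read was found in KD IN for 7 of the 15. NEFM, a neurofilament gene, had 1.59 ± 2.76 CPM in KD IN against 5480 ± 211 CPM in NC IN (SD, n = 3). TCEAL9 had 987 ± 77.2 CPM in KD IN and 2240 ± 6.48 CPM in NC IN. NEFM and TCEAL9 made up most of the NC IN sum, and TCEAL9 alone most of the KD IN sum. The marker called higher was NEFH, at 296 ± 28.1 CPM in KD IN and 137 ± 11.2 CPM in NC IN. Of 24 listed monocyte and macrophage genes, 12 had a peak and 10 a tested region. The 10 regions summed to 3740 to 4000 CPM in KD IN and 1640 to 1900 CPM in NC IN. In IP they summed to 2600 to 2930 CPM in KD and 1260 to 1370 CPM in NC. In KD input 8 were called higher and 1 lower, against the same shares over all tested regions. SPI1, a transcription factor that defines myeloid cells, had 78 ± 17.7 CPM in KD IN and 55 ± 9.09 CPM in NC IN. It was not called (log2 0.51 ± 0.21, adjusted p = 0.06). The marker called lower was CPVL, at 0.319 ± 0.552 CPM in KD IN and 24.5 ± 4.19 CPM in NC IN. No lymphoid gene of 7 had a peak, and 1 of 7 fibroblast genes was tested and not called. The difference in cell line markers runs between the same groups as the knockdown, so in every KD against NC value below the effect of the hairpin and a difference between the cultures cannot be told apart.

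The peaks of the 3 genes lay in different places. MCL1 had a 62-base KD peak over the 5′ end of the gene (chromosome 1, 150579587 to 150579648), of which 38.7% lay inside the gene body. It also had a 271-base region near the 3′ end that was called in both sets, as KD peak 150574803 to 150575073 and NC peak 150574833 to 150575103, with 241 bases in common. BCL2L1 had only NC peaks in the table, of 182 bases (chromosome 20, 31723808 to 31723989) and 122 bases (31722794 to 31722915), 892 bases apart and centred at 0.108% and 1.86% of a 59512-base gene body. BCL2L2 (chromosome 14) had a 331-base KD peak (23307956 to 23308286) holding a pair of 122-base NC peaks that differ by 2 bases in start (23307984 and 23307986). A 988-base KD peak (23308464 to 23309451) followed 177 bases further on, and 61-base peaks lay at 23308375 (NC) and 23310705 (KD). A peak called in the opposite condition overlapped 5 of the 11. Positions are on GRCh38. For MCL1 and BCL2L2 the 5′ end was taken from the strand given to the peak, exons were not given, and all 6 BCL2L2 peaks also lie in the annotated readthrough gene BCL2L2-PABPN1, from which their reads cannot be told apart.

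**Figure D1:**
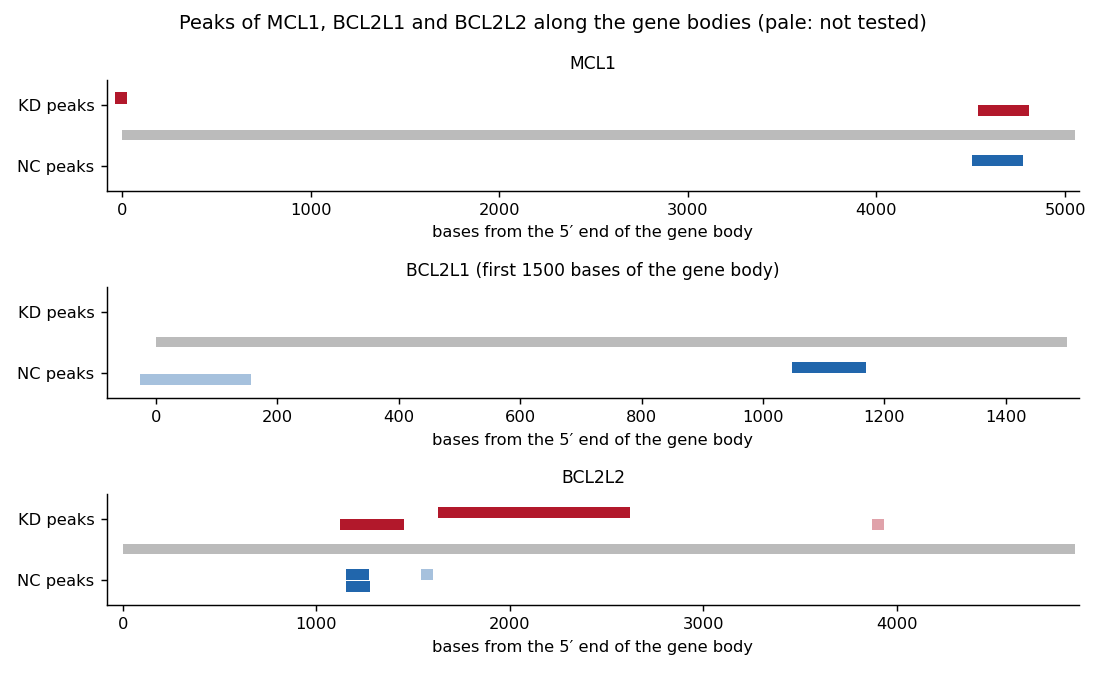
Peaks of MCL1, BCL2L1 and BCL2L2 by distance in bases from the 5′ end of the gene body (grey bar), KD peaks above it in red and NC peaks below it in blue, with untested peaks pale. MCL1 has peaks at both ends, BCL2L1 at its start, and BCL2L2 between 1123 and 3932 bases from its start.

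Both BCL2L1 peaks lay over annotated transcription starts. RefSeq (GRCh38.p14) gives BCL2L1, on the minus strand, windows around 2 starts, at 31723963 and 31722868. The 182-base peak covered the upstream start with 26 bases before it, and the 122-base peak covered the downstream start with 47 bases before it. The 250 bases before each start are shown because the peaks reach into them, with the bases inside the peak in capitals, for the upstream start (chr20:31723964-31724213) and then the downstream start (chr20:31722869-31723118).
BCL2L1 upstream: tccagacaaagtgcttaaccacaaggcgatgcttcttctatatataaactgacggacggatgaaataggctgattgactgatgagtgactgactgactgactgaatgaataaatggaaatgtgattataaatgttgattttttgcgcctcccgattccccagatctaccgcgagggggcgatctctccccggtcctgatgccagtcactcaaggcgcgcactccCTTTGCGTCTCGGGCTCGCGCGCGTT
BCL2L1 downstream: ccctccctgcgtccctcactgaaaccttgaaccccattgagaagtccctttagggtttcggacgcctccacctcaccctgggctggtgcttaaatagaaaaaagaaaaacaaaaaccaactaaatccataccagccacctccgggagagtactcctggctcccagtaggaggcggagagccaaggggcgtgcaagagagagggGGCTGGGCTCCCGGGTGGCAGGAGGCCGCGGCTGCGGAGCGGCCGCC

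The stretch before the upstream start was 50% G and C and that before the downstream start 60.4%, against a median of 58% over all 35116 windows. In the 300-base windows, searched on both strands, the upstream one held 2 matches to TATAAA, found in 11.5% of all windows, and 1 to CCGGAAGT, an ETS-type motif found in 4.14%. The downstream window held 1 match to GGGCGG, found in 45% of windows. Neither held CCAAT (34.6% of windows) or the STAT-type motif TTCNNNGAA (7.66%). These are letter matches in the windows only.

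Of the 11 peaks, 8 passed the count filter and were tested. For KD over NC in input, 2 were called higher (an MCL1 3′ peak and the BCL2L1 downstream start) and 3 lower (in BCL2L2), against 17.9% of all tested regions called higher, 21.9% lower and 39.8% in either direction. In IP 4 were called higher, all in BCL2L2, and 0 lower, against 20.9% higher, 20.1% lower and 41% in either direction over all regions. For IP over input, 3 were called higher in KD and 0 lower, where 23.5% of all regions were higher, 21.4% lower and 44.9% either. In NC 1 was called higher and 1 lower, where 22.7% were higher, 24% lower and 46.7% either. For the change in enrichment, edgeR called 0 of 8 members and 0 of 5113 regions (0.0%), with 3 members and 610 regions (11.9%) at an unadjusted p under 0.05, and DESeq2 called 21 regions.

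Groups that did not overlap were more frequent than calls. KD lay above NC in all libraries for 3 of the 8 in input (20.2% of all regions) and below it for 3 (24.6%, 44.8% either). In IP it lay above for 7 (29.5%) and below for 0 (28.3%, 57.9% either). IP lay above input in KD for 3 (32.1%) and below for 2 (24.4%, 56.6% either), and in NC above for 1 (30.3%) and below for 3 (27.5%, 57.8% either). As 3 of the 8 regions share reads within BCL2L2 and 2 within MCL1, these counts hold fewer than 8 separate observations. The BCL2L1 region reached the count filter (7.75 CPM before TMM scaling) in 5 KD libraries and 0 NC libraries, so it entered through the condition where it is high. The MCL1 5′ region reached it in IP libraries alone, 2 in KD and 2 in NC. The counts over the 8 are therefore a description of the regions that passed. The median log2 KD over NC of the 8 was 0.18 in input, against -0.01 over all tested regions, and 0.4 in IP, against 0.05.

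MCL1 was present in every library, and its 3′ region lay higher in every knockdown input library than in any control input library, at the edge of the threshold. The NC peak there had 80.2, 74.6 and 81.6 CPM in KD IN against 67, 48 and 48.5 CPM in NC IN. The log2 ratio of KD over NC in IN was 0.52 ± 0.21 (SE, adjusted p = 0.052 with edgeR), and for the overlapping KD peak 0.54 ± 0.22 (adjusted p = 0.049). These are the same transcripts on either side of the threshold of 0.05. The call of the KD peak was lost when any library but NC IN replicate 1 was left out, with log2 values of 0.44 to 0.59 and adjusted p values of 0.055 to 0.14. It was also lost with no count filter (0.6, adjusted p = 0.065) and with only the input libraries in the fit (0.54, adjusted p = 0.12). The call of the NC peak was gained without NC IN replicate 1 (0.7, adjusted p = 0.021).

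In IP the 3′ region of MCL1 had 67.2, 62.2 and 67 CPM in KD and 57.3, 49.2 and 53.5 CPM in NC. The groups did not overlap, at a log2 ratio of 0.29 ± 0.19 (adjusted p = 0.24). IP and input were close, with log2 IP over input of -0.27 ± 0.2 in KD (adjusted p = 0.27) and -0.04 ± 0.21 in NC (adjusted p = 0.89). The change in enrichment was -0.23 ± 0.29 (95% interval -0.82 to 0.36, adjusted p = 0.8). In KD every IP library lay below every input library, and in NC the groups overlapped. The authors' deposited table gave the KD peak a fold enrichment of 3.29 and the NC peak 4.09, and a log2 change of -0.35 for each.

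The 5′ region of MCL1 was thinly covered. In the knockdown it held 17, 19 and 7 reads in IP and 1, 5 and 1 reads in input. In the control it held 15, 14 and 6 reads in IP and 4, 0 and 2 reads in input. IP exceeded input in sum, by 3.3-fold in KD (counting interval 1.47 to 8.69) and 3-fold in NC (1.25 to 8.72). The region is a called peak that passed the count filter through IP libraries alone, so an excess of IP is partly built in. The fitted log2 values of 1.67 ± 0.8 and 1.56 ± 0.84 missed the threshold (adjusted p = 0.092 and 0.13), and IP and input libraries overlapped in both conditions. Without KD IN replicate 2, which held 5 of the 7 input reads, the KD value was 2.76 (adjusted p = 0.04). The change in enrichment was 0.12 ± 1.25, so that a change of several fold in either direction could not be seen at this depth.

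BCL2L1 input reads at the downstream start were few, and more were found in the knockdown. The 122-base region had 5, 13 and 9 reads in KD IN against 0, 0 and 3 reads in NC IN. All KD IN libraries lay above all NC IN libraries, and the ratio was 7.97 with a counting interval of 2.45 to 41. The fitted log2 KD over NC in IN was 2.89 ± 0.94 (adjusted p = 0.016 with edgeR), a value that leans on 3 control reads in a region that passed the count filter through KD libraries alone. It was 6.68 without NC IN replicate 3, which held them, and the call was lost without KD IN replicate 2 (2.61, adjusted p = 0.052) or NC IN replicate 1 (2.29, adjusted p = 0.066). It was also lost with only the input libraries in the fit (2.84, adjusted p = 0.082).

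In IP the same BCL2L1 region had 19, 17 and 12 reads in KD and 11, 10 and 5 in NC. Scaled to CPM the groups did not overlap, at 8.68 ± 1.36 in KD IP and 5.07 ± 1.68 in NC IP (SD, n = 3), with a log2 ratio of 0.76 ± 0.63 (adjusted p = 0.36). IP over input was -0.07 ± 0.63 in KD (adjusted p = 0.94) and 2.06 ± 0.96 in NC (adjusted p = 0.081). Without NC IN replicate 3 the NC value was 5.85 (adjusted p = 0.01), and the change in enrichment, -2.13 ± 1.16 (adjusted p = 0.48), rests on the same 3 reads. The region at the upstream start held in sum 12 IP and 9 input reads in the knockdown and 14 IP and 5 input reads in the control, and did not pass the count filter. Its input ratio of 1.59 had a counting interval of 0.479 to 6.05.

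BCL2L2 carried by far the most reads of the 3 genes, nearly all in its 988-base region. In the knockdown it had 3934, 3639 and 2726 reads in IP and 348, 337 and 389 reads in input. In the control it had 2824, 2503 and 2125 reads in IP and 249, 190 and 335 reads in input. IP lay far above input in both conditions. Scaled to CPM, it averaged 1870 ± 209 in KD IP and 366 ± 51.6 in KD IN, and 1460 ± 114 in NC IP and 296 ± 79.6 in NC IN (SD, n = 3). Its log2 IP over input was 2.35 ± 0.14 in KD (5.11-fold, adjusted p = 3.3e-12) and 2.31 ± 0.15 in NC (4.94-fold, adjusted p = 7.3e-12). Of all tested regions, 92.7% had a lower value in KD and 93.1% in NC. The calls held without each library in turn, at 2.25 to 2.47 in KD and 2.22 to 2.55 in NC. The peaks were called on these same libraries, so enrichment of a called peak is partly built in. At 988 bases it was longer than 99.9% of all peaks, whose median was 182 bases. The authors' deposited table gave it a fold enrichment of 34.5.

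The enrichment of the 988-base region did not differ between conditions beyond its error. Its change was 0.05 ± 0.2 (95% interval -0.36 to 0.46, adjusted p = 0.96). The level in IP was higher in KD, with no overlap of the libraries (log2 0.35 ± 0.13, adjusted p = 0.036). Input gave 0.3 ± 0.15 (adjusted p = 0.11) with overlapping libraries, and passed without NC IN replicate 3 (0.54, adjusted p = 0.0046). The call in IP was lost without KD IP replicate 1 or 2, KD IN replicate 2, NC IP replicate 1 or 3 or NC IN replicate 2 (log2 0.26 to 0.37, adjusted p = 0.05 to 0.19). It was lost under library size scaling as well (0.3, adjusted p = 0.081).

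The 331-base region of BCL2L2 was lower in KD input and higher in KD IP. Input had 68, 82.2 and 89.2 CPM in KD IN against 115, 129 and 111 CPM in NC IN. IP had 96, 85.1 and 81.3 CPM in KD IP against 60.5, 60.4 and 71.7 CPM in NC IP. Knockdown libraries were thus all lower in input and all higher in IP. The log2 KD over NC was -0.57 ± 0.18 in IN (1.48-fold lower, adjusted p = 0.016) and 0.45 ± 0.17 in IP (1.36-fold higher, adjusted p = 0.041). IP fell below input in NC, by 0.88 ± 0.18 on the log2 scale (adjusted p = 0.00025), and was at 0.13 ± 0.18 in KD (adjusted p = 0.55).

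The change in enrichment of that region was 1.02 ± 0.25 (2.02-fold, 95% interval 0.5 to 1.54). It had an unadjusted p of 0.00048 but an adjusted p of 0.13, so it was not called. The authors' deposited table gave the region a fold enrichment of 5.3, where the fitted IP over input in KD was 1.1-fold. It also gave a log2 change of 0.89 with an adjusted p of 0.16. Leaving out each library gave 0.84 to 1.1. In IN the call was lost without KD IN replicate 1 (-0.47, adjusted p = 0.071) or NC IN replicate 2 (-0.44, adjusted p = 0.091), and with no count filter (-0.51, adjusted p = 0.066). In IP it was lost without KD IP replicate 1 or 2, NC IP replicate 1 or 2 or NC IN replicate 2 (0.38 to 0.47, adjusted p = 0.07 to 0.16). It was lost as well with library size scaling (0.4, adjusted p = 0.066), TMM factors from shared regions (0.38, adjusted p = 0.089), no count filter (0.45, adjusted p = 0.11), at least 50 reads (0.4, adjusted p = 0.081) and DESeq2 (0.37, adjusted p = 0.083).

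The nested 122-base NC peaks of BCL2L2 had the same order of groups between conditions. The second of them had 60.3, 54.3 and 42.8 CPM in KD IP and 31.5, 29.6 and 31.5 CPM in KD IN. In the control it had 33.9, 34.2 and 32.7 CPM in NC IP and 59.7, 53.1 and 40.5 CPM in NC IN. Every IP library was above every input library in KD and below every input library in NC. Its log2 IP over input was 0.77 ± 0.26 in KD (adjusted p = 0.017) and -0.6 ± 0.25 in NC (adjusted p = 0.054). The change was 1.37 ± 0.36 (2.58-fold, unadjusted p = 0.00084, adjusted p = 0.13), which was not called. The other peak gave 1.42 ± 0.37 (adjusted p = 0.13). The authors' deposited table gave the second peak a fold enrichment of 2.16 and the other 2.21. Both are NC peaks, yet IP lay below input in NC here, and the reason was not tested. These peaks share their reads with each other and with the 331-base region, so they are no separate evidence.

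Levels of the nested peaks between conditions ran in opposite directions in input and IP. KD over NC was -0.73 ± 0.27 in IN (adjusted p = 0.033) and 0.64 ± 0.24 in IP (adjusted p = 0.034) for the second peak, and -0.74 ± 0.28 and 0.68 ± 0.25 (adjusted p = 0.038 and 0.029) for the other. For the second peak, the call in IN was lost without any KD IN library or NC IN replicate 1 or 2 (-0.59 to -0.74, adjusted p = 0.052 to 0.12). In IP it was lost without KD IP replicate 1 or 2 or any NC IP library (0.53 to 0.66, adjusted p = 0.076 to 0.15). The call of IP over input in KD was lost without KD IP replicate 1 (0.66), KD IP replicate 2 (0.74) or KD IN replicate 2 (0.72). In NC the call was gained without KD IN replicate 3 (-0.6, adjusted p = 0.047) or NC IN replicate 3 (-0.75, adjusted p = 0.028). The other peak lost its IN call without KD IP replicate 2, KD IN replicate 2 or 3, or NC IN replicate 1 or 2 (-0.61 to -0.76), its IP call without KD IP replicate 1 or 2 or any NC IP library (0.56 to 0.72), and its call in KD without KD IP replicate 1 (0.76, adjusted p = 0.051).

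Other settings also ended calls of the nested peaks. In IN both peaks lost the call with library size scaling (adjusted p = 0.057 and 0.062), no count filter (0.096 and 0.1), at least 50 reads (0.053 and 0.06) and only the input libraries in the fit (0.091 and 0.11), giving the second peak before the other. In IP both lost it with TMM factors from shared regions (adjusted p = 0.061 and 0.051), no count filter (0.084 and 0.071) and at least 50 reads (0.06 and 0.051). The second peak lost it in IP with library size scaling (adjusted p = 0.051) and DESeq2 (adjusted p = 0.05) too. Its IP over input call in KD was lost with factors from shared regions (0.56, adjusted p = 0.077).

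**Figure D2:**
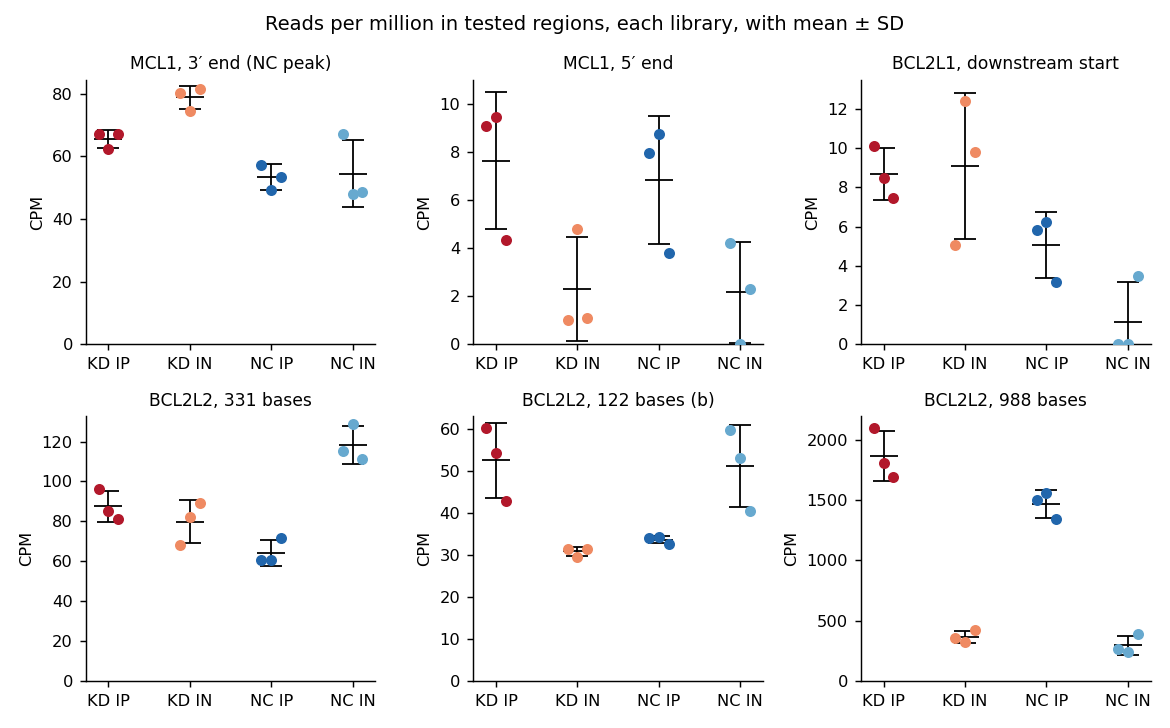
CPM of 6 regions in each of the 12 libraries (points), with the group mean and SD in black, each panel on its own linear axis from 0. The 988-base BCL2L2 region is far higher in IP than in IN in both conditions, while in the 331-base BCL2L2 region NC IN, at 118 CPM, is the highest group, and in the 122-base region KD IP and NC IN (52.5 and 51.1 CPM) lie above KD IN and NC IP (30.9 and 33.6 CPM).

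Reads of the BCL2L2 regions were also set against each other within each library, a comparison in which no scaling enters. Reads in the 331-base region came to 19.3%, 25.5% and 21.1% of those in the 988-base region in KD IN, against 44.2%, 53.7% and 28.7% in NC IN. The groups did not overlap, and the exact two-sided permutation test gave p = 0.1, the smallest that 3 libraries a group allow. In IP the proportion was 4.58%, 4.7% and 4.81% in KD and 4.04%, 3.88% and 5.36% in NC, where the groups overlapped (exact permutation p = 0.5). Reads in the second 122-base peak came to 8.91%, 9.2% and 7.46% of those in the 988-base region in KD IN, against 22.9%, 22.1% and 10.4% in NC IN. In IP they came to 2.87%, 3% and 2.53% in KD, against 2.27%, 2.2% and 2.45% in NC. KD was thus lower in every input library and higher in every IP library (exact permutation p = 0.1 each). The remaining BCL2L2 peaks were near empty. The 61-base peak at 23310705 held 5 IP and 0 input reads in the knockdown and 4 IP and 7 input reads in the control. That at 23308375 held 2 IP and 2 input reads in the knockdown and 7 IP and 2 input reads in the control.

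Per kb of region, the input level was highest in BCL2L2, then MCL1, then BCL2L1 in both conditions by each gene's best-covered region, while the 331-base BCL2L2 region stood below the MCL1 3′ region in KD IN and above it in NC IN. In KD IN the 988-base BCL2L2 region was highest at 371 ± 52.3 CPM per kb, the MCL1 3′ region (NC peak) followed at 291 ± 13.7 and the 331-base BCL2L2 region at 241 ± 32.5, with no overlap between neighbours and the nested 122-base peaks left aside. BCL2L1 had 74.6 ± 30.5 and the MCL1 5′ region 37 ± 34.7, which overlapped. In NC IN the 331-base region had 358 ± 28.3 and the 988-base region 300 ± 80.6 CPM per kb, which overlapped. MCL1 3′ had 201 ± 40, overlapping the 988-base region, and the MCL1 5′ region 35 ± 33.9 and BCL2L1 9.47 ± 16.4 were lowest and overlapped. These are levels of called regions and not of whole transcripts.

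**Figure D3:**
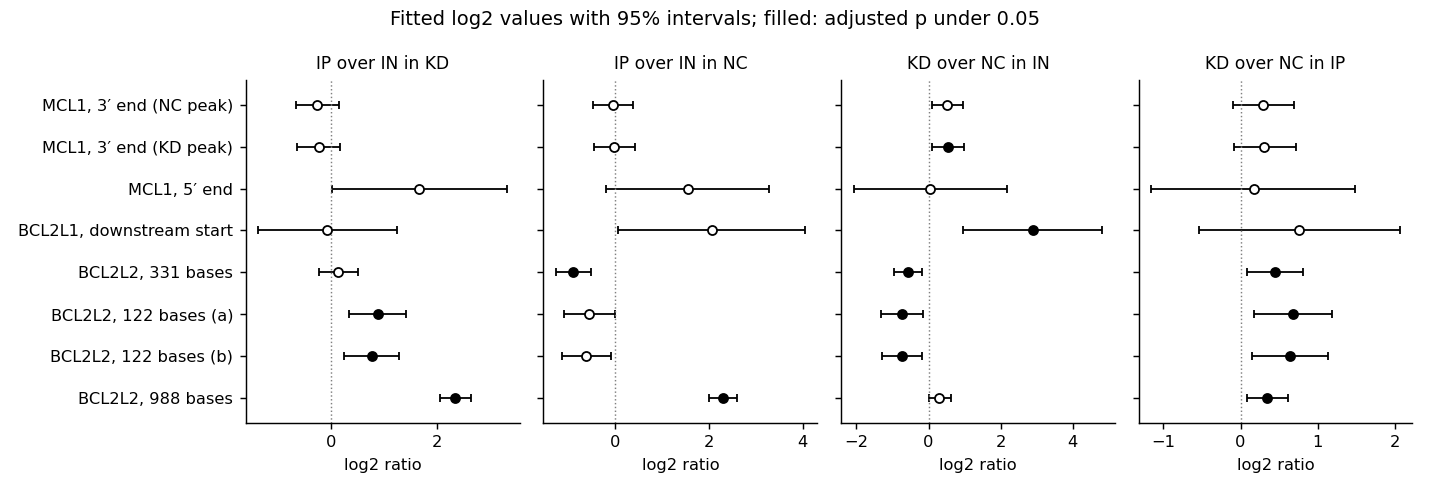
Fitted log2 ratios (horizontal axes, a panel per comparison) of the 8 tested regions with 95% intervals, filled where the adjusted p was under 0.05. The 988-base BCL2L2 region stands at 2.35 and 2.31 for IP over IN in KD and NC, and the 331-base and 122-base BCL2L2 regions lie below 0 in the input comparison and above 0 in the IP comparison.

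The regions most like each gene's best-covered region over the 12 libraries were found by Pearson correlation of log2 CPM. For MCL1 they were in TGFB3 (r = 0.958), CTSH (0.944) and MICALL2 (0.925), for BCL2L1 in CSF1 (0.97), CYBA (0.922) and MAF (0.917), and for BCL2L2 in APOBR (0.99), PPP6R1 (0.988) and ADARB1 (0.986). These correlations run over 12 libraries in 4 groups and follow the group differences. The BCL2L1 region held 0 to 19 reads a library and passed the count filter through KD libraries alone. Its correlations therefore rest on values near the floor.

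Other genes of the apoptosis pathway, and genes listed for the control or splicing of its members, were sparsely represented. Of 84 genes in 7 lists, 41 had a peak and 22 a tested region. The 84 include 19 genes of MCL-1 and BCL-xL control and 13 splicing regulators, many of them with general roles. Each gene was taken by its best-covered region. In input 2 were called higher and 6 lower in KD, where 17.9% of all tested regions were higher and 21.9% lower. Their median log2 was 0.02, against -0.01 over all regions. For the change in enrichment 0 of the 22 were called, as were 0 of all 5113 regions. Among anti-apoptotic relatives only BCL2 was tested, at 5.61 ± 4.87 CPM in KD IN and 7.42 ± 4.47 CPM in NC IN (log2 -0.45 ± 0.77, adjusted p = 0.67). The effectors BAX and BAK1, which form the mitochondrial pore, were not called in input (0.1 ± 0.23 and 0.6 ± 0.67, adjusted p = 0.76 and 0.51). Of 3 tested BH3-only genes, PMAIP1, which encodes the MCL-1 antagonist NOXA, was lower in KD, at 10.7 ± 5.81 CPM against 37.2 ± 6.85 CPM in NC (log2 -1.78 ± 0.45, adjusted p = 0.0027). BBC3, which encodes PUMA, and BAD, in a region shared with GPR137, had log2 values of 0.02 ± 0.31 and 0.04 ± 0.49 (adjusted p = 0.96 each).

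Among BCL2-related genes, BAG1, a BCL2-binding co-chaperone, was higher in KD input, at 434 ± 49.3 CPM against 270 ± 23.4 CPM in NC (log2 0.68 ± 0.15, adjusted p = 0.00063). The best-covered region of the readthrough gene BCL2L2-PABPN1 lay in PABPN1 and was lower (-0.31 ± 0.1, adjusted p = 0.021). BCL2L12, in a region shared with IRF3, had 0.02 ± 0.16 (adjusted p = 0.93) and was enriched in both conditions, with log2 IP over input of 1.46 ± 0.14 in KD and 1.81 ± 0.14 in NC (adjusted p = 1.2e-08 and 4.5e-10). In the caspase and inhibitor list 2 of 24 genes were tested. A region overlapping ENDOG, a mitochondrial nuclease, SPOUT1 and KYAT1-SPOUT1 was lower in KD (-1.27 ± 0.27, adjusted p = 0.00058), and CFLAR, a caspase-8 inhibitor, had 0.36 ± 0.26 (adjusted p = 0.29).

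Of genes that control MCL-1 and BCL-xL, 5 of 19 were tested in input. USP9X, a deubiquitinase that stabilises MCL-1, was lower in KD, at 246 ± 47 CPM against 363 ± 16 CPM in NC (log2 -0.56 ± 0.15, adjusted p = 0.0036). PPP2CA, a phosphatase subunit, was higher (0.75 ± 0.18, adjusted p = 0.0017), VDAC1 had 1.08 ± 0.44 (adjusted p = 0.051) and CDK9, a kinase for transcription elongation in a region shared with MIR2861 and MIR3960, 0.38 ± 0.23 (adjusted p = 0.2). Of 6 tested splicing regulators, HNRNPA1 (-1.39 ± 0.09, adjusted p = 1.5e-11) and HNRNPH1 (-0.79 ± 0.15, adjusted p = 0.00014) were lower in KD, and none was higher. Both are RNA-binding proteins known to act on BCL2L1 splicing, and the HNRNPH1 region was shared with LOC128966623. RBM25 and HNRNPK were not called (-0.22 ± 0.11 and -0.34 ± 0.18, adjusted p = 0.12 and 0.15).

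**Figure D4:**
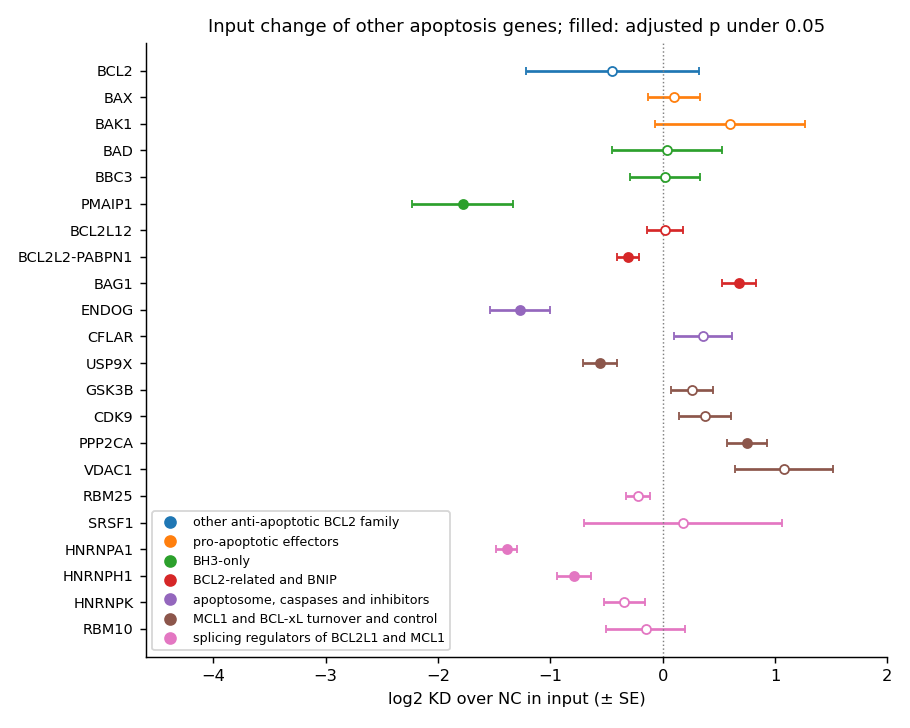
Log2 KD over NC in input (horizontal axis, ± SE) of the best-covered region of 22 other genes, coloured by list and filled where the adjusted p was under 0.05. The lists cover apoptosis genes, genes of MCL-1 and BCL-xL control and splicing regulators. BAG1 and PPP2CA lie above 0, and PMAIP1, ENDOG, USP9X, HNRNPA1, HNRNPH1 and the PABPN1 region of BCL2L2-PABPN1 lie below it.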

How the data were processed

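The authors deposited 1 table in which each peak carries KD or NC in its name, with no calls for single libraries. Per the submitters' processing notes, reads were processed with fastp 0.23.4 and the build was GRCh38. The aligner, peak caller and counter are not given in the sources used here. Deposited counts are whole, unscaled reads of each peak in each library. The authors' fold enrichment, a deposited ratio per peak, equals the deposited score in all rows. It lay above the fitted IP over input of every member peak for which it is given above. The fitted ratio is relative to the average peak region, so it need not share a scale with the deposited one. The reason for the difference was not tested. The authors also deposited p-values, adjusted p-values and a log2 change in enrichment, which correlated at 0.86 across regions with the KD over NC change fitted here.

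Counts were fitted with edgeR 4.0.16 (R 4.3.3) by its quasi-likelihood test, with 1 mean for each of the 4 groups and TMM factors, on regions kept by filterByExpr at its defaults (10 reads, total 15). Two-sided p values were adjusted by Benjamini-Hochberg over the 5113 regions, with calls at 0.05. Every adjusted p printed comes from that edgeR model unless another tool is named. Standard errors (SE) are the absolute log2 value divided by the square root of the F statistic of the test. The 95% intervals of log2 values are built on them. Counting intervals are exact 95% binomial intervals of summed reads and cover counting error only. The fit was tested on simulated data, in which each region had the same mean level in all 4 groups unless changed. Spread followed the dispersion trend, and 100 of 5113 regions were changed at each fold. These settings differ from the data, where 39.8% of regions were called in input, so the recovery rates need not hold there. For input, 2-fold changes were recovered in 45% and 4-fold changes in 90% of simulated regions. For the enrichment change, they were recovered in 34% and 72%. Alternatives were DESeq2 1.42.0, other scalings, other filters, a replicate block, fits on the compared groups alone and leaving out each library.

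The labels do not say that the 3 libraries of a group come from separate cultures, so p values measure the spread between these libraries. Members, gene lists and markers were chosen with earlier results of these data known. Named genes were all member regions and, per list, up to 4 genes by smallest p. For likeness, the 3 genes with the highest correlation were taken (prior count 2).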

Additional observations from a re-analysis of the deposited data

How the results depend on the processing

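Under the other settings, 211 values of member regions kept direction and call, 35 lost a call, 9 gained one and 17 changed sign, all 17 in values that were not called. On leaving out each library, 403 kept both, 50 lost a call, 6 gained one and 21 changed sign. The IP over input of the 988-base BCL2L2 region in both conditions and of the 331-base region in NC kept direction and call under every setting run. Low input limits BCL2L1 and the MCL1 5′ region.

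Regions called for the enrichment change numbered 0 in the reported fit, 45 without the count filter (24 higher, 21 lower), 21 with DESeq2 and 16 with the replicate block, and 0 to 1 on leaving out a library. The titles give IP and input libraries the same numbers, but the reported fit did not take them to pair the libraries. Same-numbered IP and input libraries deviated together at r = -0.019 to 0.068 and KD and NC libraries at -0.088 to 0.054. For KD over NC, the replicate block joined KD and NC libraries of the same number, and the labels do not say that these belong together. As a hint from the data, 5 of 6 IP and input pairs correlated best with their own number. With the replicate block all 5 input calls of member regions were lost, at 3.23 for BCL2L1 (adjusted p = 0.14), 0.56 for the MCL1 KD peak (0.14), -0.57 for the 331-base BCL2L2 region (0.063) and -0.71 and -0.73 for the nested peaks (0.14 and 0.16), and no other member call changed. With only the compared groups the BCL2L1 value was 2.84. Calls for the other comparisons ranged from 1953 to 2417 (KD IP over IN), 1967 to 2498 (NC IP over IN), 1806 to 2013 (IN) and 1715 to 2196 (IP) on leaving out a library. With library size alone, the share of higher calls was 63.6% in KD and 67.2% in NC for IP over input, against 52.3% and 48.6%. With scaling factors from shared regions it was 40% and 42%.

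For the MCL1 NC peak, KD over NC in IN passed at 0.6 (library size alone), 0.53 (scaling on shared regions), 0.57 (at least 50 reads) and 0.53 (DESeq2), and did not pass with no filter (adjusted p = 0.073), the replicate block (0.16) or only the compared groups (0.13). Its IP over input in NC turned to 0.26, 0.13, 0.01 and 0.03 with library size, no filter, at least 50 reads and DESeq2, and that of the KD peak to 0.28, 0.15, 0.04 and 0.05. The MCL1 5′ change turned to -0.01 with library size. BCL2L1 IP over input in KD turned to 0.1 with library size and 0.04 with no filter, and in NC passed with library size (2.34). For the 988-base BCL2L2 region the enrichment change turned to -0.08, -0.03, -0.01, -0.05 and -0.04 with library size, shared regions, no filter, at least 50 reads and DESeq2. Its input change passed at 0.38 (library size) and 0.36 (no filter). Its IP change lost its call at 0.3, 0.28, 0.3 and 0.27 with library size, shared regions, at least 50 reads and DESeq2. The 331-base region's IP over input in KD turned to -0.07 with shared regions. Peaks shared between the sets numbered 5, and 2 where 50% of both had to overlap. The causes were not tested.

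On leaving out a library, values ranged as follows. MCL1 NC peak: enrichment change -0.41 to -0.15, IP over input -0.33 to -0.23 in KD and -0.12 to 0.14 in NC, KD over NC 0.44 to 0.7 in IN and 0.24 to 0.35 in IP. BCL2L1: -5.91 to -1.52, -0.35 to 0.22, 1.46 to 5.85, 2.29 to 6.68 and 0.52 to 0.92 in the same order. The 988-base BCL2L2 region: -0.19 to 0.16, 2.25 to 2.47, 2.22 to 2.55, 0.19 to 0.54 and 0.26 to 0.42. Values that changed sign on leaving out a library were also found for the MCL1 KD peak (IP over input in NC, -0.11 to 0.19) and the MCL1 5′ region (enrichment change -0.75 to 1.18, KD over NC -1.03 to 0.92 in IN and -0.11 to 0.43 in IP).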
